A study of Mus musculus with 6 samples.

Results

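The nuclear-encoded subunits of the mitochondrial respiratory chain were followed in the spleens of weanling mice exposed to lead (Pb) during development. Members were the array probes with a single gene symbol beginning with Nduf and a letter a, b, c, s or v (complex I), Sdha to Sdhd (complex II), Uqcr (complex III), Cox4 to Cox8 (complex IV) or Atp5 (complex V, ATP synthase). The rule used names alone and found 93 probes for 83 genes, of 35587 probes on the array and 18069 genes named by a single symbol. Complex I had 35 probes, complex II 4, complex III 11, complex IV 16 and complex V 18, and 9 more probes belonged to Ndufaf genes, which match the symbol pattern but encode assembly factors of complex I. A further 6 probes that carried such a symbol beside others were not used.

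All animals were female BALB/c mice whose spleens were taken at 21 days of age. The control group held 3 animals, and the Pb group held 3 animals given 0.1 mM Pb from gestation day 8 onward. Neither the route of exposure nor the litter of origin is given in the sources used here, so the spread between animals may hold shared litters. Each animal had 1 array read in 1 colour, and the number of arrays limits the precision. All 14 measured markers of spleen lymphocytes and stroma, among them Cd79b, Ms4a1 and the spleen-patterning factor Tlx1, passed the filter on dim probes. That filter kept 24464 of all 34949 probes, and 16 of 17 pancreas exocrine probes also passed it. It takes the mean over all 5 arrays used, so a probe can pass through its Pb values alone. Amy2a5, for example, was at -3.31, -4.28 and -3.99 in controls and at 3.40 and 4.58 in Pb (log2 level after correction). Passing the filter therefore does not by itself bear out the tissue label.

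The respiratory chain passes electrons from NADH (complex I) or succinate (complex II) through ubiquinone, complex III and cytochrome c to oxygen at complex IV, and the proton gradient so built drives ATP synthase. Most of its subunits are encoded in the nucleus, while a core set is encoded in mitochondrial DNA. Spleen holds both resting lymphocytes and, in young mice, many erythroid precursors, which keep mitochondria until late in maturation and need them for haem synthesis. In bulk spleen RNA, fewer cells of a type and less RNA per cell cannot be told apart.

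Nuclear respiratory factor 1 (NRF1) is a known activator of many of these genes. Its core site, searched as GCGC, any base, then TGCGC on both strands in the 250 bases before each RefSeq start (GRCm38.p6), was matched in 13 of the 67 member genes found in the promoter table (19.4%) and in 4.23% of all 27025 genes there. The ETS-type site CCGGAAG, of the kind bound by the factor GABP, was matched in 13 of the 67 (19.4%), against 7.83% of all genes, and 3 member genes had both. The windows below are those that overlap no annotated gene, shown because they are the stretches that carry the NRF1 match, in capitals, with up to 25 bases on either side and written in the direction of the gene.
Ndufa5 (chr6:24527691-24527741, minus strand): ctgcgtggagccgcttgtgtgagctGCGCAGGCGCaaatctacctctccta
Ndufa8 (chr2:36049339-36049393, minus strand): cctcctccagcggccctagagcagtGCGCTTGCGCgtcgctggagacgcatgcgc
Ndufb4 (chr16:37654525-37654584, minus strand): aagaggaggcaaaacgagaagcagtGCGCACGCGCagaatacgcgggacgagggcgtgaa
Cox6a1 (chr5:115349086-115349145, minus strand): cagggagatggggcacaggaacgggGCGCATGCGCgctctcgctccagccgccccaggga
Atp5g2 (chr15:102671055-102671114, minus strand): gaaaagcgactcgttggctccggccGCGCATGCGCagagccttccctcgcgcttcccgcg
Atp5h (chr11:115420026-115420085, minus strand): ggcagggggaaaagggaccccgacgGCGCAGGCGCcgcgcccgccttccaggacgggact
A match is a description of letters, and whether NRF1 binds there in spleen was not measured. The 14 probes of genes with the NRF1 match had a median log2 difference between Pb and control of 0.11, and the 62 probes of genes in the table without it had 0.08.

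The deposited values were log2-transformed, and the log2 level is relative to an array median near 0. Before any correction the members had a median level of 4.51, 4.79 and 4.63 in control replicates 1 to 3, 4.46 in Pb replicate 1 and 3.97 in Pb replicate 2. In Pb replicate 3 it was 0.27. Across the 93 members the correlation with the mean of the controls was 0.98 for Pb replicate 1, 0.76 for Pb replicate 2 and -0.14 for Pb replicate 3. The values of Pb replicate 3 thus did not follow the probes, and that array entered none of the comparisons below except where stated.

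**Figure D1:**
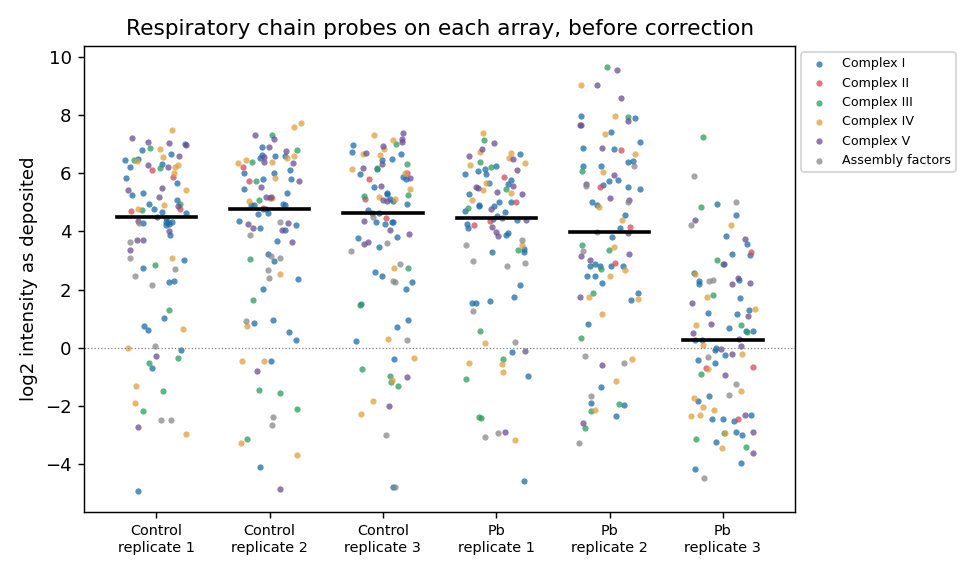
Log2 intensity as deposited (vertical axis) of the 93 respiratory chain probes on each of the 6 arrays, coloured by complex, with the median as a black bar. The medians lie between 3.97 and 4.79 on 5 arrays, while that of Pb replicate 3 is 0.27, close to the array median of about 0 (dotted line).

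The brightness of Pb replicate 2 changed along the rows of its array, so a smooth surface over array row, array column and level was removed from each of the 5 arrays. Levels given from here on are corrected in this way. Of the 93 members, 85 passed the filter on dim probes (mean level at or above the 30th percentile of all probes) and were tested. The 8 that did not were probes of Ndufs1, Uqcrq, Cox7a1, Cox7b2 and Ndufaf8 and the dimmer of the probes for Uqcrc2, Atp5c1 and Ndufaf5.

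No respiratory chain probe passed the test between Pb and control. In limma 0 of 85 tested members were called higher and 0 lower at an adjusted p under 0.05, where 0.0572% of all 24464 tested probes were called higher and 0% lower. The smallest adjusted p among members was 0.623. At an unadjusted p under 0.05 there was 1 higher member, Ndufb7, and 1 lower, Ndufaf4, where 3.95% of all tested probes were higher and 3.29% lower. Over all 93 members the median log2 difference was 0.08 (quartiles -0.12 and 0.26), beside 0.03 (quartiles -0.25 and 0.31) over all 34949 probes. The sign of the members' median turned with the correction: it was -0.27 with a surface that had no dependence on level and -0.17 with no position correction, and the values do not settle which applies. The 95% confidence interval lay wholly between -1 and 1, that is within a 2-fold change either way, for 68 of the 85 tested members.

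The members were also counted by overlap between the groups. For 13 of 93 members both Pb arrays exceeded all 3 controls, where 13% of all probes did so, and for 6 both lay under all 3, where 11.9% did so. The share above was thus near that of the array as a whole. The mean of the Pb arrays was above the control mean for 58 of the 93, where 52.9% of all probes were. Leaving out a single array moved these counts, and the shares of all probes moved as well, though not always by a like amount. Without Pb replicate 1, 56 members were above and 10 below, where 36.6% and 29.5% of all probes were. Without Pb replicate 2, 16 were above (26.3% of all probes) and 36 below (28.7%). Without control replicate 1, 19 were below (17.8%), and without control replicate 2, 10 (16.6%). They also depend on the correction. With a surface that had no dependence on level, 45 of 93 lay below and 5 above, where 19.7% of all probes lay below and 10.4% above. In that setting 61 members fell in the brightest decile of the array, and of the 3495 probes of that decile 51.8% lay below in both Pb arrays, beside 42 of the 61 members.

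**Figure D2:**
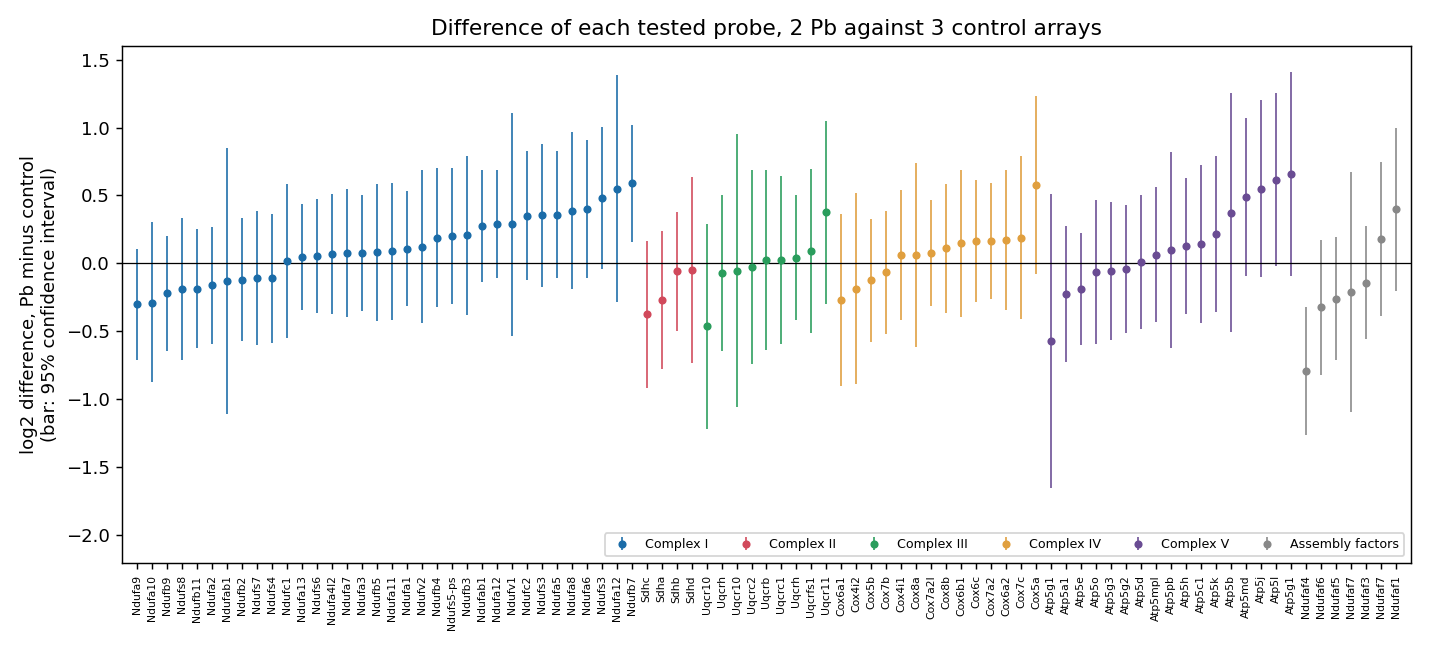
Log2 difference between 2 Pb and 3 control arrays (vertical axis) for each of the 85 tested respiratory chain probes (horizontal axis, by gene and ordered within each complex), with limma's 95% confidence interval as a bar. All but 2 intervals, those of Ndufb7 and Ndufaf4, include 0.

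Complex I oxidises NADH. Its core subunits carry the flavin and the iron-sulphur clusters, and the supernumerary subunits surround that core. Over its 35 probes the median log2 difference was 0.09, with 25 probes above 0 and 10 below. It was -0.20 with the surface without dependence on level and -0.17 without position correction. Among the core subunits, Ndufv1, which binds NADH and flavin, was at 4.30, 4.58 and 4.02 in controls and at 4.10 and 5.08 in Pb, a difference of 0.29 (95% confidence interval -0.53 to 1.11). Pb replicate 1 lay within the control range and Pb replicate 2 above it. Ndufv2, its partner in the electron input module, differed by 0.12 (-0.44 to 0.68), and Ndufs7 and Ndufs8, which hold iron-sulphur clusters on the path to ubiquinone, by -0.11 (-0.60 to 0.38) and -0.19 (-0.71 to 0.34).

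Ndufs3, a core subunit of the arm that reaches into the matrix, had 2 probes with differences of 0.48 and 0.35 (limma adjusted p = 0.623 and 0.629). The dimmer probe was at 1.26, 0.97 and 1.27 in controls and at 1.43 and 1.87 in Pb, so the groups did not overlap. On the other probe Pb replicate 1, at 3.10, lay within the control range of 2.60 to 3.13. The probe for Ndufs1, the largest subunit of complex I, was dim on every array, from -5.05 to -3.17, and was not tested.

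Ndufb7, a supernumerary subunit of the membrane arm, had the largest difference among tested complex I members. It was at 0.85, 0.68 and 0.90 in controls and at 1.30 and 1.51 in Pb. Both Pb spleens lay above all controls, with a difference of 0.59 (SE 0.18), and the limma adjusted p over all probes was 0.623. Ndufa9, which lies near the ubiquinone site, had the lowest difference in the complex, -0.30 (95% confidence interval -0.71 to 0.11). It was at 5.23, 5.46 and 5.41 in controls and at 5.06 and 5.08 in Pb, again without overlap. Ndufb9 was the other of 2 complex I probes below all controls in both Pb arrays, where 11.9% of all probes did so. Above lay 7 of the 35 probes (13% of all probes), those of Ndufa5, Ndufa6, Ndufc2 and Ndufb7 and 1 probe each of Ndufa12, Ndufab1 and Ndufs3.

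For Ndufa12 both probes were above 0 (0.29 and 0.55). The brighter had controls from 4.88 to 4.98 and Pb values of 5.16 and 5.28, while on the dimmer Pb replicate 1, at -0.44, lay at the control level and Pb replicate 2 at 0.71. The 2 probes of Ndufab1, the mitochondrial acyl carrier protein that is also a complex I subunit, differed in sign (0.28 and -0.13). Ndufs5-ps is annotated as a transcribed pseudogene, so its probe (difference 0.20) may read transcripts of the parent gene. Ndufa4l2, a relative of Ndufa4 that carries the family symbol, differed by 0.07 (-0.37 to 0.51).

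Complex II is the succinate dehydrogenase of the citric acid cycle and the only complex with no subunit from mitochondrial DNA. All 4 of its subunits had a difference below 0, and none passed the test. Sdha, the flavoprotein, was at 5.95, 6.30 and 6.09 in controls and at 5.65 and 6.03 in Pb, a difference of -0.27 (95% confidence interval -0.78 to 0.24). Sdhc, a membrane anchor, was at 4.76, 5.17 and 4.95 in controls and at 4.37 and 4.81 in Pb, a difference of -0.37 (-0.92 to 0.17). For both genes Pb replicate 1 lay below every control and Pb replicate 2 within their range.

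Sdhb, the iron-sulphur subunit, differed by -0.06 (-0.50 to 0.38) and the anchor Sdhd by -0.05 (-0.73 to 0.63). Sdhd showed the widest gap between the Pb animals within this complex, with 4.22 in replicate 1 and 5.07 in replicate 2, below and above all controls. In Pb replicate 1 all 4 subunits lay below all controls, where 28.7% of all probes did. In Pb replicate 2, 2 of the 4 lay above all controls, where 36.4% of all probes did. The limma adjusted p of the 4 subunits ran from 0.627 to 0.958. With the surface without dependence on level all 4 lay below all controls in both Pb arrays, with a median of -0.61. In that setting 45 of all 93 members and 19.7% of all probes lay below.

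Complex III passes electrons from ubiquinol to cytochrome c. Its median difference was 0.03 over 11 probes, and 0 of them separated the groups in either direction, where 13% of all probes lay above and 11.9% below. The median was -0.29 with the surface without dependence on level, with 3 of 11 below, where 19.7% of all probes were. Without position correction it was -0.52, with 1 above and 3 below, where 19.5% and 17.6% of all probes were. Uqcrfs1, the Rieske iron-sulphur protein, was at 4.91, 5.08 and 5.09 in controls and at 4.77 and 5.47 in Pb, a difference of 0.09 (-0.51 to 0.69). The core proteins Uqcrc1 and Uqcrc2 (its brighter probe) both differed by 0.03 in size, Uqcrc1 by 0.03 (-0.59 to 0.65) and Uqcrc2 by -0.03 (-0.74 to 0.68). Among the small subunits, Uqcrb differed by 0.03 (-0.64 to 0.69), and the hinge protein Uqcrh by 0.04 and -0.07 on its 2 probes.

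The ends of the range in complex III were Uqcr11, at 0.38 (-0.30 to 1.05), and Uqcr10, at -0.46 (-1.22 to 0.29). For Uqcr11 Pb replicate 1, at 2.98, lay within the control range of 2.91 to 3.16 and Pb replicate 2 above it at 3.80. The second Uqcr10 probe had -0.05, and both Uqcr10 probes spread widely among controls, from -1.56 to -0.22 and from -1.48 to -0.61. Outside the rule, cytochrome c1 (Cyc1), a haem-bearing subunit of complex III, was at 4.70, 5.04 and 5.19 in controls and at 4.26 and 4.88 in Pb, a difference of -0.41 (-1.05 to 0.23). Both probes for cytochrome c (Cycs) lay under the filter.

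Complex IV, cytochrome c oxidase, has subunits with general and with tissue-restricted forms. The 10 general subunits had a median difference of 0.11, and 7 of them lay above 0. Cox4i1, a general subunit that helps regulate the enzyme, was at 6.63, 6.53 and 6.69 in controls and at 6.47 and 6.89 in Pb. Its difference was 0.06 (-0.42 to 0.54), with the Pb animals on either side of the controls. The same held for Cox7b (-0.07), which was at 6.18 and 6.55 in Pb against 6.39 to 6.47 in controls.

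Cox5a, a matrix-facing subunit, had the largest difference among tested complex IV members. It was at 3.12, 2.51 and 3.04 in controls and at 3.23 and 3.71 in Pb, a difference of 0.58 (-0.08 to 1.23, limma adjusted p = 0.623), and the groups did not overlap. Cox6a1, whose promoter match is printed above, had the lowest difference of the tested members at -0.27 (-0.90 to 0.37), with a single control at 7.81 and all other values between 7.06 and 7.17. Cox5b, Cox6b1, Cox6c, Cox7a2, Cox7c and Cox8a differed by -0.13 to 0.19. Cox7a2l, which joins complexes III and IV into supercomplexes, spanned only 5.14 to 5.28 over all 5 arrays (difference 0.08), and both its Pb values lay above the controls, the second by 5.249 against 5.247.

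Other subunits of complex IV have forms known from particular tissues. Cox6a2 and Cox8b, forms of heart and skeletal muscle, differed by 0.17 (-0.34 to 0.69) and 0.11 (-0.36 to 0.59), and Cox4i2, known from lung, by -0.19 (-0.89 to 0.52). Cox7a1, another muscle form, was at -1.59, -3.10 and -1.70 in controls and at -1.47 and -0.97 in Pb. Both Pb values lay above the controls, but the probe was under the filter and was not tested. The testis form Cox7b2, also untested, lay between -3.62 and -2.23 on all arrays. Of 23 muscle marker probes 16 lay under the filter, Ckm among them, and the summed linear level of all 23 was 11.8 to 13.6 in controls and 13.7 and 14.2 in Pb.

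Complex V turns the proton gradient into ATP. Its F1 head holds the catalytic sites, a stalk joins the head to the membrane part, and a ring of c subunits turns in the membrane. Over 18 probes the median difference was 0.11. In the F1 head, Atp5a1 (alpha) was at 6.13, 6.59 and 6.31 in controls and at 6.02 and 6.23 in Pb, a difference of -0.22 (-0.73 to 0.28). Atp5b (beta, the catalytic subunit) was at 3.46, 3.76 and 3.93 in controls and at 3.52 and 4.66 in Pb, a difference of 0.37 (-0.51 to 1.25), and only Pb replicate 2 left the control range. Atp5c1 (brighter probe) and Atp5d differed by 0.14 and 0.01.

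Atp5e, the epsilon subunit, was the sole complex V member below all controls in both Pb arrays, where 11.9% of all probes were. It was at 7.19, 7.20 and 7.26 in controls and at 6.92 and 7.14 in Pb, a difference of -0.19 (-0.60 to 0.22). In the stalk, Atp5j (coupling factor 6) was at 4.13, 4.28 and 4.23 in controls and at 4.36 and 5.17 in Pb, a difference of 0.55 (-0.10 to 1.20, limma adjusted p = 0.623). Its groups did not overlap, though replicate 2 carried most of the difference. The other stalk subunits Atp5pb, Atp5h and Atp5o differed by 0.10, 0.13 and -0.06.

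All 4 membrane subunits of the ATP synthase dimer region lay above 0, where 52.9% of all probes did, with a median of 0.35. Their median deviation from the control mean was 0.052 in Pb replicate 1 and 0.655 in Pb replicate 2, so replicate 2 carried most of it. Atp5l (subunit g) was at 4.11, 4.15 and 3.75 in controls and at 4.29 and 4.95 in Pb, a difference of 0.62 (-0.02 to 1.25), and Atp5md was at 5.36, 5.17 and 5.03 in controls and at 5.38 and 5.97 in Pb, a difference of 0.49 (-0.09 to 1.07). Both genes separated the groups without passing the test (limma adjusted p = 0.623 for each). Atp5k (subunit e) and Atp5mpl differed by 0.22 and 0.07. With the surface without dependence on level, the median of complex V was -0.37 and 0 of its 18 probes exceeded all controls in both Pb arrays, while 9 lay under them, where 10.4% and 19.7% of all probes did so.

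The 3 genes of the identical c subunit, which differ in their import sequences, did not move as 1 group. Atp5g2 differed by -0.04 and Atp5g3 by -0.06. Atp5g1 had 2 probes of opposite sign. The brighter was at 3.58, 4.12 and 3.94 in controls and at 4.11 and 4.95 in Pb (difference 0.66, limma adjusted p = 0.623), and the dimmer at -0.44, -0.87 and -0.49 in controls and at -0.42 and -1.92 in Pb (difference -0.57, limma adjusted p = 0.674). On both, Pb replicate 1 lay at or near the controls. In all, 10 member genes had 2 probes, and in 6 of them (Atp5g1, Ndufab1, Ndufaf5, Ndufaf7, Uqcrc2 and Uqcrh) the probes differed in sign.

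The Ndufaf assembly factors, which help build complex I without staying in it, had a median difference of -0.21 over 9 probes. Of these 3 lay below all controls in both Pb arrays and 0 above, where 11.9% and 13% of all probes did so. With the surface without dependence on level the median was -0.27, with 4 below and 0 above (19.7% and 10.4% of all probes). Without position correction it was 0.18, with 1 below and 2 above (17.6% and 19.5% of all probes). Ndufaf4 had the lowest difference of all 85 tested members. It was at 2.90, 3.08 and 3.15 in controls and at 2.41 and 2.08 in Pb, a difference of -0.79 (95% confidence interval -1.26 to -0.32, limma adjusted p = 0.623). Both Pb animals lay well below the control range, but the probe did not pass over all probes.

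The probe of Ndufaf8 (-4.08 to -2.36) and the dimmer one of Ndufaf5 (-4.91 to -2.40) were not tested. Both Ndufaf7 probes were tested, and they differed by -0.21 and 0.18. Ndufaf6 (difference -0.32) and the brighter probe of Ndufaf5 (-0.26) were the other assembly factors below all controls. On the wider list of assembly factors for all complexes, which includes these, 0 of 39 tested probes passed, the median was -0.12, and 9 of 42 measured probes lay below all controls (11.9% of all probes) and 2 above (13%). Those above were Sdhaf2 (0.39) and 1 probe of Ttc19 (0.41), while the other Ttc19 probe had -0.007. For Sdhaf2 the lower Pb value was 5.583 against a highest control of 5.569, and 1 control lay at 4.639. Among those below, the copper chaperone Sco1 was at -1.20, -0.76 and -0.94 in controls and at -1.60 and -1.89 in Pb, a difference of -0.79 (limma adjusted p = 0.623). The ATP synthase factors Atpaf1 and Atpaf2 (the probe with -0.37) and the complex I factor Foxred1 also lay below all controls, with differences of -0.27, -0.37 and -0.34. The other Atpaf2 probe had 0.19.

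The Pb animals differed from each other in the same direction for most members. Pb replicate 2 lay above Pb replicate 1 for 82 of 93 members, where 53.2% of all probes did so. The median deviation from the control mean was -0.13 in Pb replicate 1 and 0.31 in Pb replicate 2, beside 0.005 and 0.07 over all probes. For 43 members replicate 1 lay below the control mean and replicate 2 above it, where 23.6% of all probes did so. Pb replicate 1 lay below all controls for 36 members (28.7% of all probes) and above for 16 (26.3%), and Pb replicate 2 lay above all controls for 56 (36.4%) and below for 10 (29.8%). With the correction used here the order was the same in each complex, with 30 of 35 probes in complex I, 4 of 4 in II, 10 of 11 in III, 15 of 16 in IV and 17 of 18 in V.

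**Figure D3:**
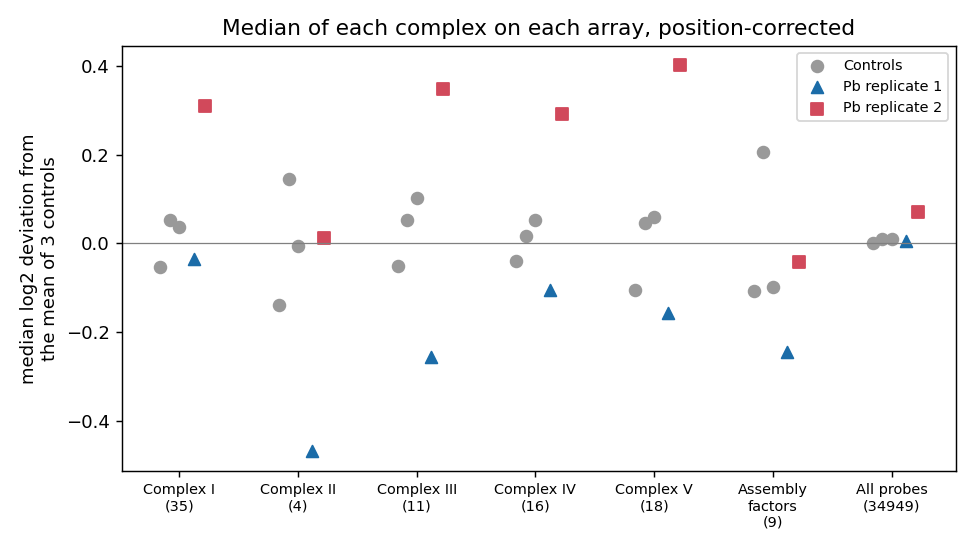
Median log2 deviation from the mean of the 3 controls (vertical axis) of each complex on each of the 5 arrays, with the number of probes in brackets. Pb replicate 2 lies above Pb replicate 1 in all 5 complexes, while both lie near 0 over all probes. The medians are 0.31 against -0.04 in complex I, 0.01 against -0.47 in complex II and 0.35 against -0.26 in complex III.

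Both the size and the direction of that gap depend on the correction. With the surface without dependence on level the members' medians were -0.27 in Pb replicate 1 and -0.32 in Pb replicate 2, and replicate 2 was higher for 14 of 35 probes in complex I, 2 of 4 in II, 7 of 11 in III, 7 of 16 in IV and 11 of 18 in V. Without position correction the medians were -0.08 and -0.22, and replicate 2 was higher for 49 of 93 members (55% of all probes), with 1 of 4 in complex II and 5 of 11 in III. Of the 61 members in the brightest decile of the array, 56 were higher in Pb replicate 2 than in Pb replicate 1, where 50.6% of that decile's 3495 probes were. With the surface without dependence on level the decile as a whole lay at -0.19 in Pb replicate 1 and at -0.72 in Pb replicate 2. In that setting 26 of the 61 members were higher in Pb replicate 2, where 17.1% of the decile were, and over all 93 members 47 were higher (43.7% of all probes). Pb replicate 1 belongs to the arrays whose mean was the reference for the correction and Pb replicate 2 does not.

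**Figure D4:**
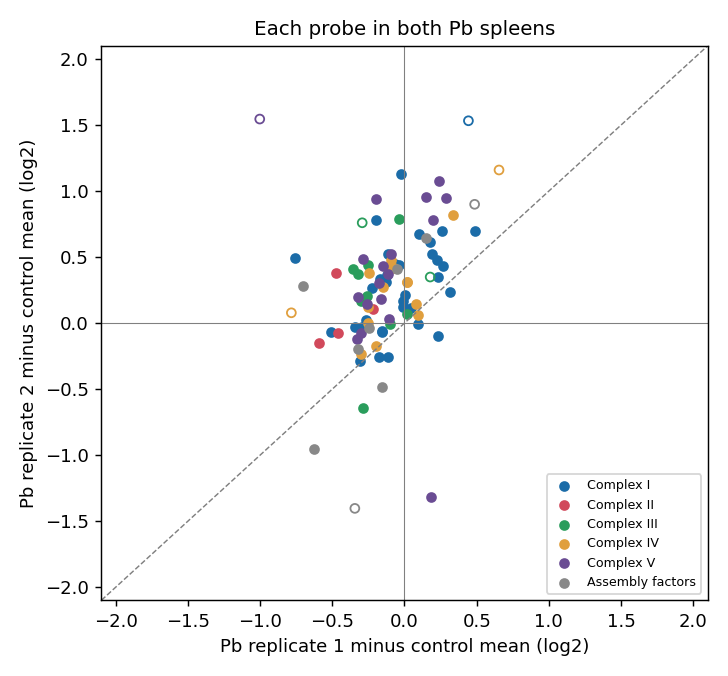
Deviation from the control mean of each of the 93 probes in Pb replicate 1 (horizontal axis, log2) and in Pb replicate 2 (vertical axis, log2), coloured by complex; open circles are the 8 probes under the filter. Most points, 82 of 93, lie above the dashed line of equal values.

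Markers of other cell types were read beside this split, with the correction used here only. The 12 erythroid probes, Slc4a1, Klf1 and Rhd among them, were all above the filter. Of these, 11 were higher in Pb replicate 2 than in replicate 1, where 53.2% of all probes were. Their summed linear level was 557 to 770 in controls, 591 in Pb replicate 1 and 877 in Pb replicate 2. For 11 neutrophil probes the order was the opposite, with 1 higher in Pb replicate 2 and sums of 332 to 462 in controls, 647 in Pb replicate 1 and 359 in Pb replicate 2. Spleen lymphoid and stromal markers summed to 243 to 268 in controls and to 278 and 245 in Pb, pancreas exocrine markers to 22.6 to 25.4 in controls and to 198 and 274 in Pb, and adipocyte markers to 38.4 to 43.2 in controls and to 47.9 and 53.5 in Pb. The part of these cells in the values of the respiratory chain was not tested.

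Other mitochondrial gene lists showed no call either. Of 18 tested probes for the citric acid cycle and pyruvate dehydrogenase 0 passed in limma, with 0 at an unadjusted p under 0.05 in either direction, and the median over all 21 was -0.015. Citrate synthase (Cs) was at 3.34, 3.62 and 3.73 in controls and at 3.08 and 3.98 in Pb. With the correction used here 18 of the 21 probes were higher in Pb replicate 2 than in Pb replicate 1, where 53.2% of all probes were. The biogenesis regulators had 0 of 12 tested probes past the adjusted threshold and a median of 0.06 over 17. Nrf1, which encodes the factor whose site is printed above, was at 0.87, 1.05 and 1.07 in controls and at 0.56 and 0.77 in Pb, a difference of -0.33 (-0.76 to 0.10, limma adjusted p = 0.623), and Tfb2m, a factor for mitochondrial transcription, had -0.46 (limma adjusted p = 0.623). These were the 2 of 17 probes below all controls in both Pb arrays, where 11.9% of all probes did so, and 0 lay above. Polg, Tfb1m and Ppargc1b differed by 0.53, 0.36 and 0.36 without passing the test. The subunits encoded in mitochondrial DNA had 0 probes under a single symbol, so the genomes could not be compared.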

How the data were processed

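The deposited file held probe intensities on a linear scale, with an array median of 0.972 to 0.988 in every column, so the authors' values seem to be scaled per array. How they were extracted, background-corrected and normalised is not stated in the labels. Probes were named by the platform annotation, and all 93 members matched RefSeq (GRCm38.p6) by entrez identifier.

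Values under the 1st percentile of an array's positive intensities (151 to 711 values per array were at or under 0) were raised to it, and the deposited values were set to log2. Pb replicate 3, whose values do not follow the probes, and array rows 402 to 409 (638 probes), which the rule for members excludes, were left out. The smooth trend of each array against a reference, the mean over controls and Pb replicate 1, was subtracted 2 times (mgcv 1.9.3, with a basis of 40 for row, 6 for level and 8 for column). Groups were compared with limma 3.58.1 in R 4.3.3, two-sided, adjusted by Benjamini-Hochberg over 24464 probes and tested on simulated data. There, 20.6% of the 68 probes given a log2 difference of 1 in size were called, so most of that size were missed. Of the 66 probes given a difference of 2 in size, 97% were called. In the simulation noise had 1 size for all probes of an array, and changed probes came from the brighter part of it. The shares called may therefore not hold for the members, whose spread differs from probe to probe. False calls numbered 5. P-values measure only the spread between these samples.

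Members and lists were chosen with earlier results of these data known. Named genes were those with fixed roles in each complex, any member past the threshold, the largest and smallest difference in each complex, and genes whose probes differ in sign. Others named, such as those whose groups did not overlap, were chosen after their values were seen. Alternatives changed the correction, scaling, floor, filter, weights, pairing and arrays.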

Additional observations from a re-analysis of the deposited data

How the results depend on the processing

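Of 930 comparisons of named members under 15 other settings, 928 stayed on their side of the threshold and 2 gained a call, both without Pb replicate 1, where Pb replicate 2 stands alone and is assumed to vary like the controls: Atp5j (0.98) and the dimmer Atp5g1 probe (-1.38). In that setting 4 members were called, also Ndufaf4 (-0.96) and a Ndufa12 probe (1.09), among 2888 of all probes. In 145 comparisons an uncalled difference changed sign. The surface without dependence on level was added after seeing the data.

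The medians depended on the correction and on which Pb array was used. Without dependence on level they were -0.27 for all members and -0.20, -0.61, -0.29, -0.24 and -0.37 for complexes I to V, with 5 members above and 45 below all controls (10.4% and 19.7% of all probes). Without position correction they were -0.17 for all members, -0.17 for complex I, -0.52 for III, 0.21 for IV and 0.07 for V, with 15 members above and 21 below (19.5% and 17.6% of all probes). With all 6 arrays as deposited, Pb replicate 3 included, they were -1.48 for all members and -1.63, -2.26, -1.96 and -1.42 for complexes I, II, IV and V but 0.15 for III, with 3 members above and 16 below (10.3% and 11.7% of all probes). With 1 array left out, the median ran from -0.13 to 0.33 for all members, -0.035 to 0.34 for complex I, -0.47 to 0.04 for II, -0.26 to 0.35 for III, -0.10 to 0.32 for IV and -0.16 to 0.44 for V. For all members the lowest is without Pb replicate 2 and the highest without Pb replicate 1. Members called ran from 0 to 4, members above from 14 to 56 and members below from 9 to 36. All probes past the threshold, 14 in the comparison reported, ran from 2 to 2888, and were 0 without position correction, 0 without the filter and 0 with all 6 arrays. The labels do not say that a replicate number pairs animals, and arrays of like number correlated at r = 0.029 and -0.003 in their deviations. With the replicate block 7 of all probes passed, and members stayed at 0. The cause of these shifts was not tested. The 8 untested members are limited by signal close to background.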

Other observations

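Mitochondrial carriers and glycolysis, on either side of the respiratory chain, were also free of calls (limma, 0 of 10 and 0 of 14 tested probes). Slc25a3, the phosphate carrier that feeds ATP synthase, was at 6.37, 6.47 and 6.68 in controls and at 6.20 and 6.15 in Pb, a log2 difference of -0.33 (95% confidence interval -0.76 to 0.11). Atpif1, the inhibitor of ATP synthase, was at 4.46, 4.17 and 4.17 in controls and at 4.53 and 4.92 in Pb, a difference of 0.46, and both Pb values lay above the controls. The uncoupling protein Ucp1, a marker of brown fat, lay under the filter on its single probe. Among glycolytic genes, Aldoc was at -0.53, -0.56 and -0.70 in controls and at -1.83 and -3.45 in Pb, named after its values were seen. It passed the filter through its controls, so no fold is given. Ldha (brighter probe), Pgk1 and Pfkp differed by -0.02, -0.02 and 0.01. The median over 16 glycolytic probes was 0.09. With the correction used here Pb replicate 2 was higher than Pb replicate 1 for 8 of them, beside 82 of 93 respiratory chain probes and 53.2% of all probes. The differences between these shares were not tested.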
